A study of Mus musculus with 32 samples.

Results

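The genes described here are 10 genes through which T cells make, display, activate and sense transforming growth factor beta (TGF-beta). They are the ligand Tgfb1, the docking protein gene Lrrc32, the integrin genes Itgav and Itgb8, the receptor genes Tgfbr1, Tgfbr2, Tgfbr3 and Acvrl1, and the signalling genes Smad3 and Smad7. They were taken by name, not by a cutoff on measured values, but were chosen with earlier results of these data known. Shares of all genes given beside their counts are therefore a description. They are 10 of the 35968 genes to which the deposited transcripts were summed. RNA was sequenced from T cells sorted from male C57BL/6 mice of the Foxp3GFP genotype, in which a green fluorescent protein marks cells that express Foxp3, the defining transcription factor of regulatory T cells. The sort gate was TCRb+CD4+Foxp3+ for regulatory T cells (Treg) and TCRb+CD4+Foxp3- for conventional T cells (Tconv), and both were taken from liver and from spleen. The mice were given carbon tetrachloride (CCl4), a liver toxin used to produce liver injury and fibrosis, or served as controls. Each of the 4 populations, liver Treg, liver Tconv, spleen Treg and spleen Tconv, has 5 CCl4 libraries and 3 control libraries, which makes 8 groups and 32 libraries. Every group carries the same Foxp3GFP genotype and sex, and the labels used here give no age, dose or length of treatment. Whether replicate libraries stem from different mice is not given either, and a p-value here measures only the spread between these samples, which may be technical.

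TGF-beta is secreted in a latent form, held inactive by its own propeptide. On Treg the latent complex is displayed by GARP, the protein of Lrrc32, and the integrin made of alpha-v (Itgav) and beta-8 (Itgb8) releases the active ligand from it. The free ligand binds the type II receptor Tgfbr2, which recruits and activates the type I receptor Tgfbr1, and the signal passes to Smad3. Tgfbr3, also named betaglycan, is a coreceptor that presents ligand, Acvrl1 (ALK1) is another type I receptor of the family known mainly from endothelial cells, and Smad7 is an inhibitor that the pathway itself induces. In liver, TGF-beta is known for driving fibrosis by activating stellate cells, and in T cells it is known for restraining conventional cells and for supporting Treg.

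Libraries held 24513124 to 75292019 estimated counts, and all 10 genes passed the filter on low counts that left 17159 genes to test. The sort labels fit their defining gene: Foxp3 was at 909 to 1176 CPM (counts scaled to the TMM-normalized library size) in the Treg libraries and at 0.681 to 3.43 CPM in the Tconv libraries. Some libraries stood apart from their groups. Spleen control libraries 2 and 3, of both cell types, differed in Fos, an immediate-early gene. It was at 711 to 1116 CPM in the CCl4 spleen libraries, against 843 CPM in Treg and 804 CPM in Tconv of spleen control 1 and 19.4 to 26.4 CPM in spleen controls 2 and 3. Some results that use spleen libraries are therefore also given without these libraries. A spleen result that has no such second value includes them. Summed hepatocyte markers were at 132 to 562 CPM in the liver libraries and at 2.81 to 29.7 CPM in the spleen libraries, and each of the 10 was called higher in liver in both cell types. Most of the lower sums were 1 marker, Trf (transferrin), which was at 147.7 to 267 CPM in CCl4 liver Treg and 94.98 to 127 CPM in control liver Treg, while Alb (albumin) was as low as 1.07 CPM in a CCl4 liver Treg library. The part of liver RNA in the liver to spleen differences was not tested. In spleen Treg, the 11 myeloid and Kupffer cell markers summed to 60.2 to 120 CPM with CCl4 and to 20.4 to 28.6 CPM in controls. Of these 11, 3 were called higher with CCl4 (C1qa, C1qb and S100a8) and 0 lower. The part of myeloid RNA in the CCl4 differences of spleen Treg was not tested. In sorted bulk samples, fewer cells with a transcript and less of the transcript per cell cannot be told apart.

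The number of genes past the test differed widely between the comparisons. A gene was called at an adjusted p under 0.05 in edgeR's quasi-likelihood test. With CCl4 in liver Treg, 2 of the 10 genes rose (Itgav and Smad7), beside 7.55% of all genes tested, and 2 fell (Acvrl1 and Tgfbr3), beside 7.34%, together 14.9% of all genes. The median log2 fold change was 0.25 over the 10 genes and -0.00071 over all genes. With CCl4 in liver Tconv none of the 10 was called, beside 0.326% of all genes. The same count of 0 came from spleen Treg, beside 1.18% of all genes, and from spleen Tconv, beside 1.07%. At an unadjusted p under 0.05 these 3 comparisons gave 2, 3 and 2 of the 10 genes, beside 2222, 2330 and 2505 of the 17159 genes tested. DESeq2 called 2 of the 10 in spleen Tconv (Lrrc32 and Smad7), where it called 445 of all genes higher and 212 lower. It called 0 of the 10 in the other 2, and limma-voom called 0 in all 3.

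More of the 10 genes were called between tissues and between cell types, where each side holds 8 libraries, than with CCl4. Between liver and spleen Treg, 4 of the 10 genes were higher in liver (30.1% of all genes) and 4 lower (30.5%), together 60.6% of all genes called. In Tconv 6 were higher in liver (27.2% of all genes) and 2 lower (27.7%), together 55.0% of all genes, and without spleen controls 2 and 3 only 4 of these 8 were called. Between Treg and Tconv, 4 were higher in liver Treg (24.7% of all genes) and 5 lower (27.1%), together 51.8% of all genes. In spleen 6 were higher in Treg (19.4%) and 4 lower (20.3%), together 39.7%. The counts for liver against spleen in Treg and for Treg against Tconv in spleen were also 8 and 10 without those controls.

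The genes were also counted whose libraries did not overlap between the groups. With CCl4 it held for 6 of the 10 genes in liver Treg (19.1% of all genes) and for 3 in spleen Treg (10.9%), against 0 in liver Tconv (6.65%) and 0 in spleen Tconv (8.82%). For tissue and cell type, CCl4 libraries were set against CCl4 libraries and control against control, and a gene counted only if it was apart in both, so that CCl4 libraries of one side may overlap controls of the other. By that count liver and spleen were apart for 5 genes in Treg (29.1% of all genes) and for 4 in Tconv (25.7%), and Treg and Tconv for 8 genes in liver (23.5%) and for 9 in spleen (19.6%).

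**Figure D1:**
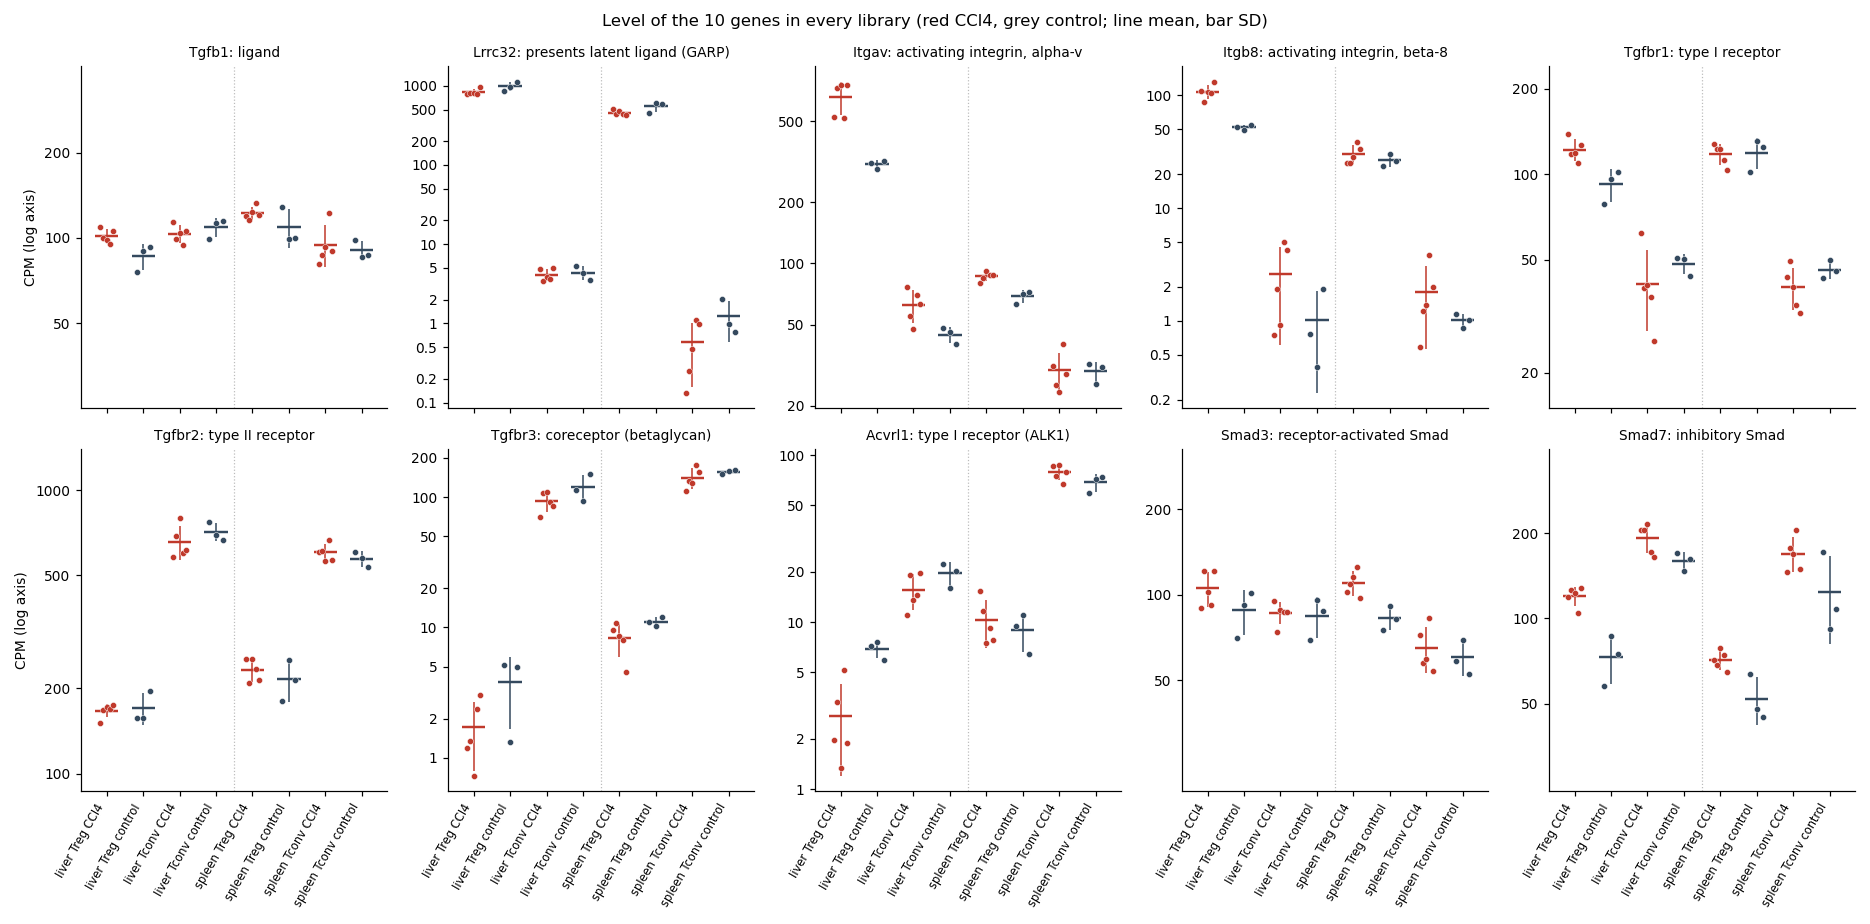
Each panel shows the level of 1 gene in CPM on a log axis, by group, with 1 point per library, the group mean as a line and the SD as a bar. Lrrc32, Itgav, Itgb8 and Tgfbr1 lie higher in Treg than in Tconv, Tgfbr2, Tgfbr3, Acvrl1 and Smad7 lie lower, and the 5 CCl4 liver Treg libraries lie above their 3 controls for Itgav, Itgb8, Tgfbr1, Tgfb1 and Smad7 and below them for Acvrl1.

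**Figure D2:**
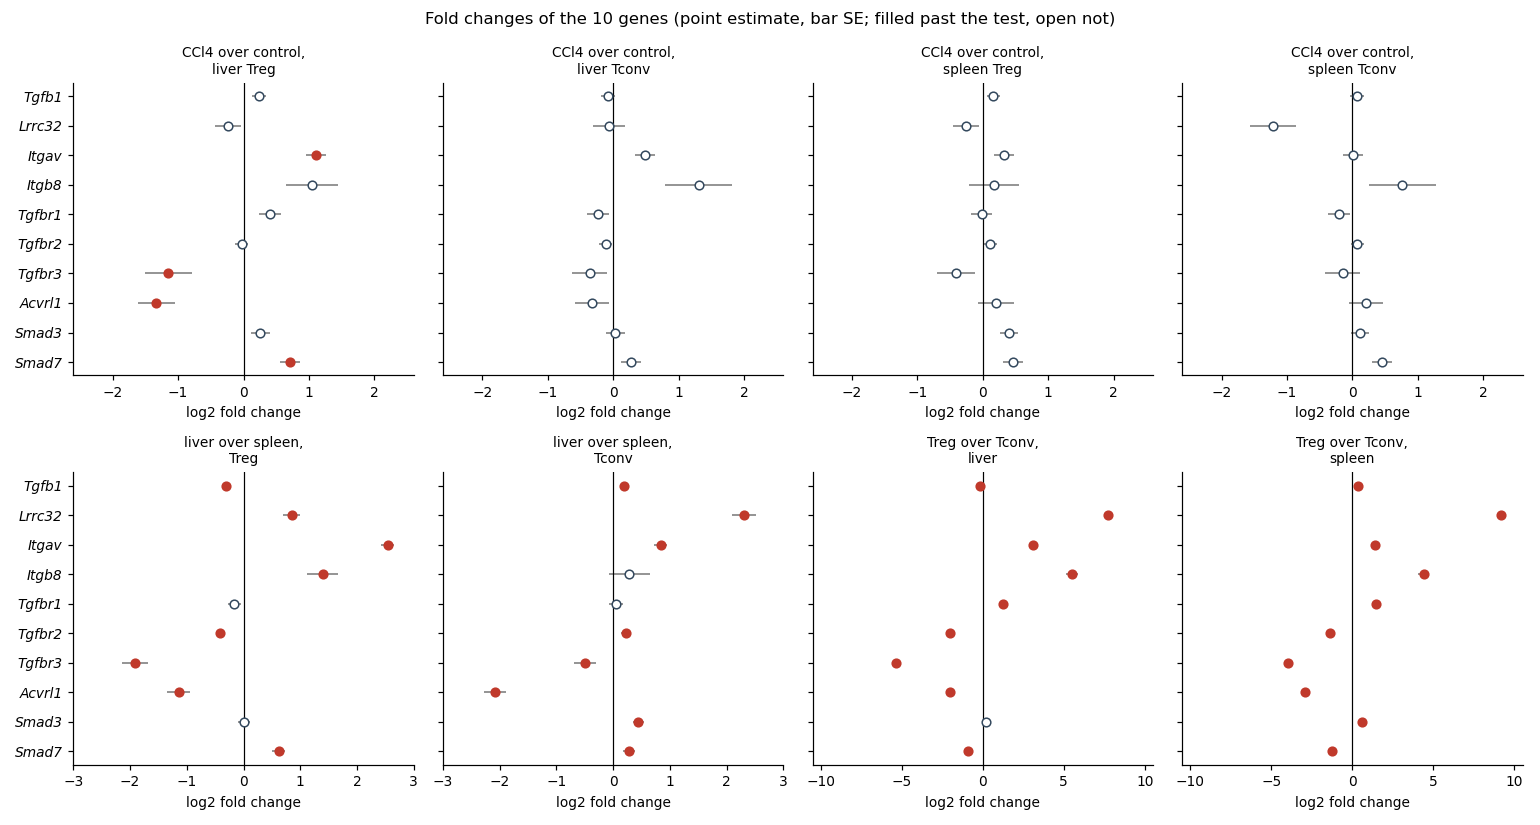
Log2 fold changes of the 10 genes in 8 comparisons, with bars for the SE; filled points passed the test and open points did not. The x axes differ between the CCl4, tissue and cell type panels, and the panel of CCl4 in liver Treg holds the 4 filled points of all CCl4 panels.

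Levels of different genes can be set side by side only per length, for which the deposited TPM values are scaled. In spleen Treg, Lrrc32 was the highest of the 10 genes with 202 ± 35.9 TPM (SD, n = 8), followed by Tgfb1 with 114 ± 15.99 TPM, Tgfbr2 with 69.1 ± 9.95 TPM and Itgav with 68.7 ± 17.4 TPM. In liver Treg, Itgav was listed at 568 ± 234 TPM, above Lrrc32 at 369.9 ± 56.6 TPM. That order in liver rests on short Itgav transcripts described below: the full-length Itgav transcript held 9.86% of the TPM of the gene in CCl4 liver Treg and 11.6% in control liver Treg. The Itgav TPM in spleen Treg also includes short transcripts, which weigh more per length than in reads. By reads, not TPM, the full-length transcript held a mean of 69.9% of Itgav in CCl4 spleen Treg and 74.95% in control spleen Treg. The like shares of reads in liver Treg were 48.0% with CCl4 and 57.3% in controls. Shares of reads cannot be set against the shares of TPM given for liver. In Tconv the order was different, with Tgfbr2 highest at 189.6 ± 19.8 TPM in liver and 171 ± 15.6 TPM in spleen. Lrrc32 and Itgb8 were the 2 lowest in Tconv, Lrrc32 with 1.59 ± 0.352 TPM in liver and 0.354 ± 0.252 TPM in spleen, Itgb8 with 0.516 ± 0.411 TPM in liver and 0.371 ± 0.234 TPM in spleen. Itgb8 ranked below the other activation gene, Itgav, in both Treg populations, with 30.9 ± 11.5 TPM in liver and 8.49 ± 1.09 TPM in spleen.

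Tgfb1 (chromosome 7, 25687002 to 25705077, plus strand, GRCm38) encodes the ligand and varied least over the 8 groups. Its group means ran between 122 ± 6.52 CPM in CCl4 spleen Treg (SD, n = 5) and 86.2 ± 8.92 CPM in control liver Treg (SD, n = 3), and no pair of neighbours in the order of the 8 means was free of overlapping libraries. In liver Treg it was at 109, 99.6, 98.6, 95.0 and 106 CPM with CCl4 and at 76.02, 89.8 and 92.7 CPM in controls. The groups did not overlap, but the log2 fold change of 0.24 (SE 0.10) did not pass the test (edgeR adjusted p = 0.129).

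The tissue effect on Tgfb1 differed between the cell types. It was lower in liver than in spleen Treg by 0.30 on the log2 scale (SE 0.07, edgeR adjusted p = 0.00078), with a lowest, median and highest library of 76.02, 96.8 and 109 CPM in liver Treg and 98.8, 119.8 and 133 CPM in spleen Treg, a call that ended on the deposited TPM (-0.14, adjusted p = 0.286). In Tconv it was higher in liver, with a log2 fold change of 0.20 (SE 0.07, edgeR adjusted p = 0.0235), a call that ended without spleen controls 2 and 3 (0.13, adjusted p = 0.255). The difference between the cell types in this tissue effect was -0.50 (SE 0.10, edgeR adjusted p = 0.00077), beside 12.4% of all genes called lower, 7.02% higher and 19.4% either way for that difference. Treg were below Tconv in liver by 0.18 (SE 0.07, edgeR adjusted p = 0.0386) and above them in spleen by 0.32 (SE 0.07, adjusted p = 0.00078). The call in liver held in 4 of 11 alternatives, with -0.025 in CCl4 libraries alone (adjusted p = 0.847), and was lost in 8 of 16 fits that left out 1 library and lay at an adjusted p between 0.0226 and 0.133 in those fits.

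Lrrc32 (chromosome 7, 98489283 to 98502181, plus strand) encodes GARP, which holds latent TGF-beta at the surface of Treg. It was the gene with the widest gap between the cell types. Liver Treg had a lowest, median and highest library of 774, 834 and 1115 CPM and liver Tconv 3.44, 4.11 and 5.28 CPM, a 214-fold difference (log2 fold change 7.74, SE 0.21, edgeR adjusted p = 1.84e-22). In spleen the values were 425, 464 and 604 CPM in Treg and 0.134, 0.873 and 2.01 CPM in Tconv, a 588-fold difference (log2 9.20, SE 0.23, adjusted p = 6.65e-23). No Treg library came near any Tconv library.

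In both cell types liver libraries had more Lrrc32 than spleen libraries. The log2 fold change was 0.85 (SE 0.14, edgeR adjusted p = 8.9e-06) in Treg and 2.31 (SE 0.21, adjusted p = 2.09e-10) in Tconv, and the libraries of the tissues did not overlap in either. Without spleen controls 2 and 3 these were 0.98 in Treg and 1.98 in Tconv, both called. The tissue effect was smaller in Treg than in Tconv by 1.46 on the log2 scale (SE 0.26, adjusted p = 0.00011). This difference was -0.46 on the deposited TPM (adjusted p = 0.0874), -0.90 in control libraries alone (0.168) and -1.004 without spleen controls 2 and 3 (0.0217). Foxp3, a marker of stray Treg in a Tconv sort, was at 0.681 to 2.96 CPM in liver Tconv and at 1.35 to 3.43 CPM in spleen Tconv.

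With CCl4, Lrrc32 was at 774, 813, 812, 785 and 959.7 CPM in liver Treg, against 855, 973 and 1115 CPM in controls, and the groups overlapped (log2 fold change -0.24, SE 0.20, edgeR adjusted p = 0.482). In spleen Treg it was at 425 to 511 CPM with CCl4 and at 455 to 604 CPM in controls. In spleen Tconv it was at 0.134, 0.254, 0.473, 1.09 and 0.988 CPM with CCl4 and at 2.01, 0.974 and 0.773 CPM in controls, a log2 fold change of -1.21 (SE 0.35) that did not pass the test (edgeR adjusted p = 0.0807). It was called without CCl4 library 4 (adjusted p = 0.0447) or CCl4 library 5 (adjusted p = 0.0471), and DESeq2 called it in all libraries (adjusted p = 0.0206).

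Itgav (chromosome 2, 83724397 to 83806916, plus strand) encodes alpha-v, the integrin subunit that binds the latent complex with one of several beta partners. Of the rises with CCl4 that passed the test, its was the largest among the 10 genes. In liver Treg it was at 528, 733, 757, 522 and 755 CPM with CCl4 and at 311, 290.3 and 319.5 CPM in controls. All CCl4 libraries lay above all controls. The rise was 2.15-fold (log2 fold change 1.10, SE 0.15, edgeR adjusted p = 6.59e-06), and it was called in all 8 fits that left out 1 library, between 1.05 and 1.18 on the log2 scale.

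In the other populations no change of Itgav with CCl4 passed the test. In liver Tconv it was at 76.7, 55.4, 47.5, 70.2 and 62.8 CPM with CCl4 and at 47.9, 46.0 and 39.9 CPM in controls, with a log2 fold change of 0.49 (SE 0.15, edgeR adjusted p = 0.154). In spleen Treg it was at 79.7, 84.7, 92.1, 88.1 and 88.0 CPM with CCl4 and at 63.5, 71.0 and 72.6 CPM in controls, where the groups did not overlap but the log2 fold change of 0.33 (SE 0.15) was not called (adjusted p = 0.334). Spleen Tconv had 23.3 to 40.1 CPM with CCl4 and 25.5 to 31.96 CPM in controls. The CCl4 effect in liver Treg exceeded that in spleen Treg by 0.78 (SE 0.21, edgeR adjusted p = 0.0255), beside 2.02% of all genes called higher, 3.46% lower and 5.48% either way for that difference. This call was not stable, since it ended without spleen controls 2 and 3 (0.65, adjusted p = 0.265), and also without liver Treg control 1 (adjusted p = 0.0506), liver Treg control 2 (0.0721), spleen Treg control 2 (0.0547) or spleen Treg control 3 (0.0729). The excess over liver Tconv was 0.61 (SE 0.21) and was not called (adjusted p = 0.111), beside 1.88% of all genes called higher, 1.77% lower and 3.65% either way.

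Tissue and cell type set a steep order for Itgav. CCl4 liver Treg came first with 659 ± 123 CPM (SD, n = 5), then control liver Treg with 307 ± 15.0 CPM (n = 3), CCl4 spleen Treg with 86.5 ± 4.65 CPM and control spleen Treg with 69.0 ± 4.86 CPM. Each of these 4 groups was apart from the next in its libraries, while control spleen Treg overlapped CCl4 liver Tconv, and the 4 Tconv groups, with means between 29.4 and 62.5 CPM, overlapped their neighbours. Liver Treg exceeded spleen Treg 5.82-fold (log2 2.54, SE 0.11, edgeR adjusted p = 3.1e-17) and liver Tconv exceeded spleen Tconv 1.78-fold (log2 0.84, SE 0.11, adjusted p = 1.51e-07). The difference of these tissue effects, 1.71 (SE 0.15, adjusted p = 2.09e-09), was also called without spleen controls 2 and 3, at 1.83. Treg exceeded Tconv 8.52-fold in liver and 2.61-fold in spleen.

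Itgb8 (chromosome 12, 119158022 to 119238802, minus strand) encodes beta-8, the partner with which alpha-v activates TGF-beta on Treg. As for Itgav, the 2 liver Treg groups were on top. In liver Treg it was at 108, 87.4, 106, 105 and 131 CPM with CCl4 and at 52.5, 49.5 and 54.5 CPM in controls. The lowest CCl4 library lay well above the highest control. Its log2 fold change of 1.04 (SE 0.39) nevertheless did not pass the test (edgeR adjusted p = 0.0726). Of the 9 alternative fits 3 called it, among them limma-voom (1.03, adjusted p = 4.27e-05) and edgeR on the liver Treg libraries alone (1.03, adjusted p = 0.00033), while DESeq2 did not (1.04, adjusted p = 0.132).

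In Tconv, Itgb8 was low and scattered. It was at 0.746, 1.92, 0.922, 5.05 and 4.29 CPM in CCl4 liver Tconv and at 0.771, 0.392 and 1.92 CPM in control liver Tconv. In spleen Tconv all libraries lay between 0.588 and 3.85 CPM. In spleen Treg, Itgb8 was at 24.97 to 38.5 CPM with CCl4 and at 23.4 to 30.2 CPM in controls, and the groups overlapped (log2 fold change 0.18, SE 0.38). Treg exceeded Tconv 45.7-fold in liver (log2 5.52, SE 0.36, edgeR adjusted p = 1.09e-13) and 21.1-fold in spleen (log2 4.40, SE 0.34, adjusted p = 9.09e-12). Liver Treg exceeded spleen Treg 2.64-fold (log2 1.40, SE 0.27, adjusted p = 7.36e-05), at 1.49 without spleen controls 2 and 3. Among control libraries alone that tissue effect was 0.97 and was not called (adjusted p = 0.0717).

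The reads of both integrin genes were spread over full-length and short transcripts, in shares that varied between the groups. The sequences at which 3 of the short transcripts part from the full-length one are shown. A read over such a junction or into such an intron can tell the full-length and the short transcript apart. Such a read is not required, since the full-length transcript has exons behind the junction that the short one lacks. In the GENCODE M21 annotation the full-length Itgav-201 has 30 exons and 7054 bases, whereas Itgav-208 and Itgav-203, annotated as retained introns, stop within the introns behind exon 3 and exon 4 after 428 and 877 intron bases. Itgb8-201 has 14 exons and 8403 bases, and the retained-intron transcript Itgb8-203 stops 1713 bases into the intron behind exon 6. The last 25 bases of the shared exon are in lower case and the 40 bases that follow in each transcript are in capitals, all 5′ to 3′ on the strand of the gene. The stretches that run on into the intron lie at chr2:83747920-83747984 (plus strand) for Itgav-208, at chr2:83755896-83755960 (plus strand) for Itgav-203 and at chr12:119189779-119189843 (minus strand) for Itgb8-203, in GRCm38.
Itgav-201, exon 3 spliced to exon 4: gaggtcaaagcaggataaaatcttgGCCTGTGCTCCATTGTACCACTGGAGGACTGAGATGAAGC
Itgav-208, exon 3 read on into the intron: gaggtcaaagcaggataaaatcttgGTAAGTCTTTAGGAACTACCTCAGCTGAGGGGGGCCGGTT
Itgav-201, exon 4 spliced to exon 5: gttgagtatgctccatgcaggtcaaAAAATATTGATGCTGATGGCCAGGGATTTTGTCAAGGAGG
Itgav-203, exon 4 read on into the intron: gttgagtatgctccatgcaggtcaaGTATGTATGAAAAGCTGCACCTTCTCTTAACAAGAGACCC
Itgb8-201, exon 6 spliced to exon 7: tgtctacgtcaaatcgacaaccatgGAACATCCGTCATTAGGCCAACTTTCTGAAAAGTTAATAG
Itgb8-203, exon 6 read on into the intron: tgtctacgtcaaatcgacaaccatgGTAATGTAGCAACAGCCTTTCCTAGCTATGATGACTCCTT

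Both kinds of Itgav transcript were higher with CCl4 in liver Treg. The full-length transcript was at 239.6, 369, 359, 251 and 366 CPM with CCl4 and at 175, 159.7 and 194 CPM in controls, and the groups did not overlap. Tested on the longest protein-coding transcript of each gene alone, which for Itgav is this one, the log2 fold change was 0.84 (edgeR adjusted p = 0.00268). All other Itgav transcripts together were at 342 ± 58.8 CPM with CCl4 (SD, n = 5) and at 131 ± 5.41 CPM in controls (SD, n = 3). Itgav-203 alone was at 119 ± 21.7 CPM with CCl4 and at 43.7 ± 2.88 CPM in controls, and Itgav-208 at 67.2 ± 10.9 CPM and 22.3 ± 5.41 CPM.

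The full-length share of the Itgav reads was lower with CCl4, at 45.4 to 50.4% in CCl4 liver Treg and 55.0 to 60.8% in control liver Treg. In the other groups it was higher, with means between 69.9% in CCl4 spleen Treg and 82.2% in CCl4 spleen Tconv. These shares are a description, without a test. For Itgb8 the full-length share was 47.3% ± 5.20 in CCl4 liver Treg and 46.2% ± 3.72 in control liver Treg, and 64.8% ± 5.26 in CCl4 spleen Treg and 62.7% ± 9.30 in control spleen Treg. The full-length Itgb8 transcript was at 50.6 ± 7.59 CPM with CCl4 in liver Treg and at 24.1 ± 2.01 CPM in controls. The Itgb8 shares of liver and spleen Treg did not overlap within a treatment. They were 41.4 to 55.1% in liver and 59.1 to 69.6% in spleen with CCl4, and 42.0 to 48.9% and 52.1 to 69.4% in controls. Across treatments these shares overlapped, since a CCl4 liver Treg library had 55.1% and a control spleen Treg library 52.1%. Reads that cover only sequence common to several transcripts are split between them by kallisto, and Gm13684, annotated on the opposite strand, overlaps exons of Itgav, so its reads could not be told apart where strand was not kept.

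**Figure D3:**
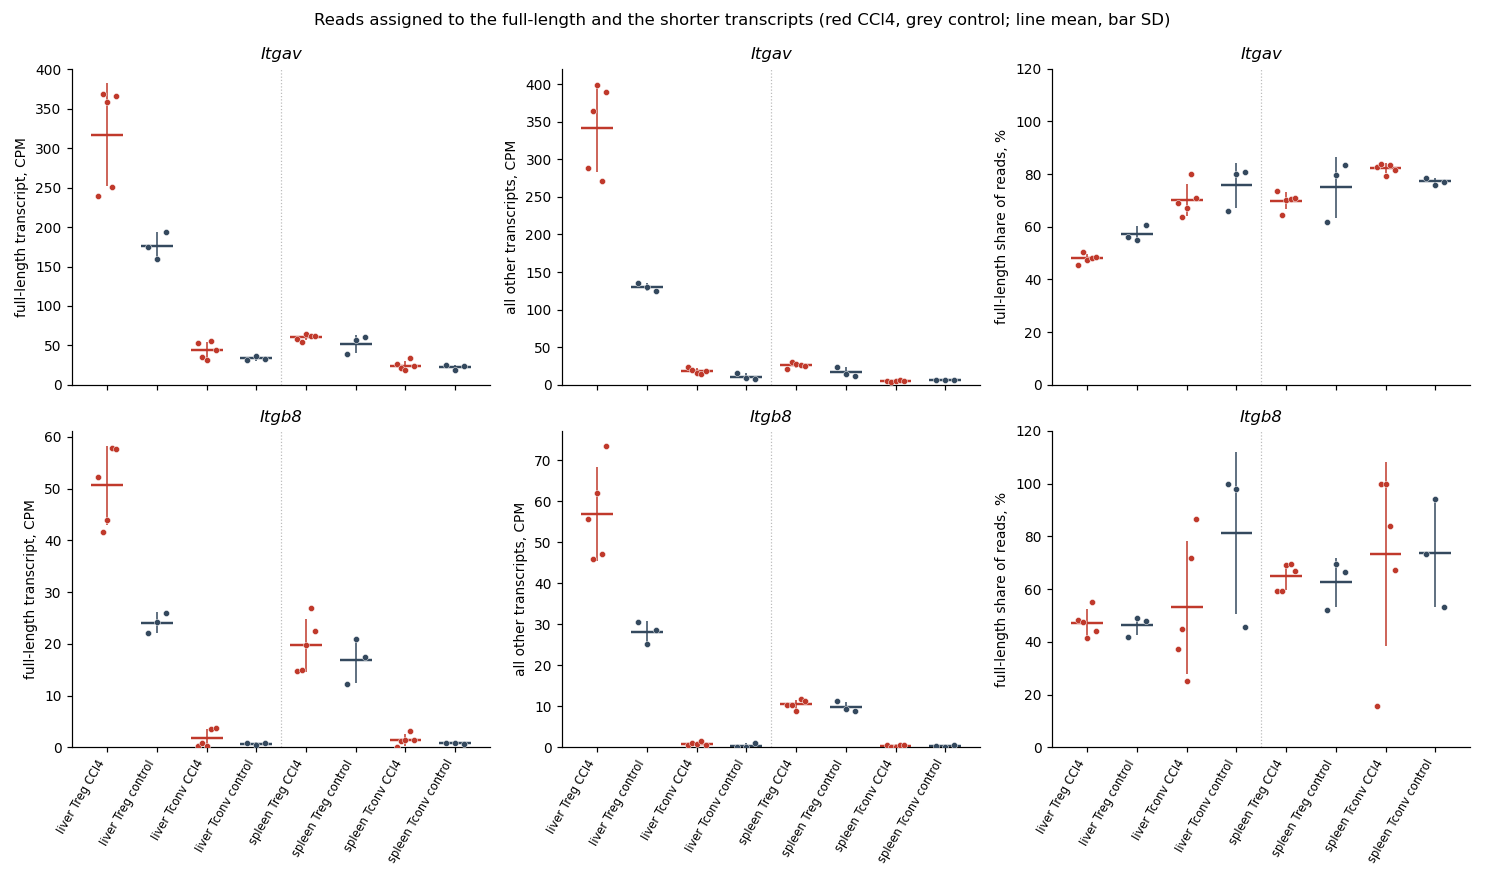
Reads assigned to the full-length transcript (left, CPM), to all other transcripts (middle, CPM) and the full-length share of the reads (right, %), for Itgav above and Itgb8 below, with 1 point per library, means as lines and SD as bars. The full-length Itgav share lies at 45.4 to 50.4% in CCl4 liver Treg and at 55.0 to 60.8% in control liver Treg, and Itgb8 shares in Tconv rest on few reads.

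The other genes of ligand storage and activation moved with CCl4 in liver Treg in both directions. Of 15 tested, 2 rose and 2 fell, with a median log2 fold change of 0.25, where 7.55% of all genes rose and 7.34% fell. Itgb1, a beta chain that pairs with alpha-v and with many other alpha subunits, fell to a mean of 455 CPM with CCl4, against 947 CPM in controls (log2 fold change -1.06, SE 0.14, edgeR adjusted p = 2.87e-06). Nrp1, a coreceptor that binds TGF-beta on Treg, fell by 0.65 (SE 0.15, adjusted p = 0.00314). Nrros, which anchors latent TGF-beta on myeloid cells, rose by 0.55 (SE 0.11, edgeR adjusted p = 0.00067), a call made in 8 of 9 alternative fits. Itgb5, another alpha-v partner, which was singled out after its values were seen, rose to 5.18 CPM, against 2.01 CPM in controls (log2 1.36, SE 0.42, adjusted p = 0.0276). Itgb3 was at 71.3 CPM with CCl4 and 78.2 CPM in controls (log2 -0.13, SE 0.16). No gene of this list was called with CCl4 in the other 3 populations.

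Furin, the protease that cleaves the TGF-beta precursor, separated the tissues in both cell types. Of the 15 genes of the list 7 were higher in liver than in spleen Treg and 0 were lower, and 9 were higher and 1 lower in liver than in spleen Tconv, where 30.1% and 30.5% of all genes were called higher and lower in Treg and 27.2% and 27.7% in Tconv. Furin was at 131 CPM in liver and 68.4 CPM in spleen Treg, and at 276 CPM in liver and 67.2 CPM in spleen Tconv (log2 fold changes 0.93, edgeR adjusted p = 6.86e-06, and 2.04, adjusted p = 9.57e-12). Nrros was the gene lower in liver Tconv, with 83.4 CPM in liver and 183 CPM in spleen (log2 -1.13, edgeR adjusted p = 5.77e-13).

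Markers of other cell types were summed beside Itgav in liver Treg. The 10 stellate cell and fibroblast markers summed to 7.38 to 60.3 CPM with CCl4 and to 5.98 to 15.5 CPM in controls, 1 of 9 tested rose (Col1a2), and Lum, Reln, Lrat, Des and Pdgfrb were under 1 CPM in every liver Treg library. The 8 dendritic cell markers summed to 37.7 to 63.3 CPM with CCl4 and to 31.6 to 48.3 CPM in controls, with 1 of 7 tested higher (Xcr1) and 1 lower (Itgax). The 8 platelet markers summed to 60.4 to 103 CPM with CCl4 and to 72.9 to 90.6 CPM in controls, and none of 5 tested was called. The part of these cells in the results for Itgav and Itgb8 was not tested.

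Tgfbr1 (chromosome 4, 47353222 to 47414931, plus strand) encodes the type I receptor kinase that phosphorylates Smad3. Treg had more of it than Tconv in both tissues, 2.38-fold in liver (log2 fold change 1.25, SE 0.12, edgeR adjusted p = 3.57e-10) and 2.76-fold in spleen (log2 1.46, SE 0.12, adjusted p = 2.125e-11), with no overlap of libraries. In liver Treg it was at 139, 118, 119, 109 and 126 CPM with CCl4 and at 78.6, 96.1 and 102 CPM in controls. These groups did not overlap, and the log2 fold change of 0.41 (SE 0.17) was not called (edgeR adjusted p = 0.0991), although 3 of 9 alternative fits called it. In liver Tconv the CCl4 libraries ran from 25.9 to 62.1 CPM and the controls from 44.0 to 51.0 CPM. The tissue effect was small and not called, at -0.16 in Treg and 0.05 in Tconv.

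Tgfbr2 (chromosome 9, 116084293 to 116175360, minus strand) encodes the type II receptor that binds the ligand first, and it ran opposite to Tgfbr1. Treg had 152 to 195 CPM in liver and Tconv 582 to 796 CPM, a log2 fold change of -2.02 (SE 0.08, edgeR adjusted p = 4.87e-19). In spleen Treg had 179.9 to 254 CPM and Tconv 535 to 667 CPM, a log2 fold change of -1.39 (SE 0.07, adjusted p = 2.08e-15). The treatment did not separate the groups in any population, with log2 fold changes between -0.12 and 0.11 and SE of 0.10. Tgfbr2 was lower in liver than in spleen Treg by 0.41 (SE 0.07, adjusted p = 2.03e-05) and higher in liver than in spleen Tconv by 0.22 (SE 0.07, adjusted p = 0.0117). The call in Tconv ended without spleen controls 2 and 3 (0.17, adjusted p = 0.115), while their difference, -0.63 (SE 0.10, adjusted p = 4.79e-05), was called with and without them.

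Tgfbr3 (chromosome 5, 107106570 to 107289629, minus strand) encodes the coreceptor betaglycan and was low in liver Treg. Its lowest, median and highest library were 0.731, 1.86 and 5.16 CPM in liver Treg and 70.7, 100.3 and 149.5 CPM in liver Tconv, 41.4-fold lower in Treg (log2 fold change -5.37, SE 0.25, edgeR adjusted p = 7.76e-17). In spleen they were 4.53, 9.89 and 11.97 CPM in Treg and 111, 153 and 176 CPM in Tconv, 15.4-fold lower in Treg (log2 -3.95, SE 0.22, adjusted p = 8.52e-15). Liver Treg were below spleen Treg by 1.92 (SE 0.23, adjusted p = 3.78e-08), and liver Tconv below spleen Tconv by 0.50 (SE 0.19, adjusted p = 0.0295), and the call in Tconv ended without spleen controls 2 and 3 (adjusted p = 0.14).

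With CCl4 in liver Treg, Tgfbr3 was at 1.20, 1.36, 0.731, 2.37 and 3.04 CPM, against 5.16, 1.33 and 4.98 CPM in controls. Control 2 lay within the CCl4 range, so the groups overlapped. The log2 fold change of -1.15 (SE 0.35) passed the test (edgeR adjusted p = 0.0263), but 5 of 8 fits that left out 1 library ended the call, with adjusted p of 0.218 without control 1, 0.142 without control 3, and 0.0624, 0.0541 and 0.0704 without CCl4 libraries 1, 2 and 3. Of the 9 alternative fits only 5 called it, and limma-voom was among those that did not (adjusted p = 0.241). Other populations gave log2 fold changes between -0.41 and -0.15, none called. Gm43422 is annotated on the same strand over exons of Tgfbr3, and reads shared with it could be split between them.

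Acvrl1 (chromosome 15, 101128522 to 101145336, plus strand) encodes ALK1, a type I receptor for bone morphogenetic proteins that can also take part in TGF-beta signalling in endothelium. In these T cells it was highest in spleen Tconv. The lowest, median and highest library were 1.34, 4.23 and 7.596 CPM in liver Treg, 10.99, 17.6 and 22.3 CPM in liver Tconv, 6.41, 9.38 and 15.4 CPM in spleen Treg and 59.2, 74.7 and 87.1 CPM in spleen Tconv. Liver Tconv lay below spleen Tconv: no liver Tconv library reached any spleen Tconv library, a 4.22-fold difference (log2 fold change -2.08, SE 0.19, edgeR adjusted p = 3.95e-10, and -1.98 without spleen controls 2 and 3). Treg were 3.99-fold below Tconv in liver (log2 -1.996, SE 0.20, adjusted p = 1.58e-09) and 7.63-fold below in spleen (log2 -2.93, SE 0.20, adjusted p = 7.18e-13). On the longest protein-coding transcript alone, which held 18.6% of the Acvrl1 reads in control liver Treg, these 3 differences kept their sign and were not called (-1.21, adjusted p = 0.271, between tissues, and -1.46, 0.197, in liver and -1.63, 0.169, in spleen between cell types).

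With CCl4 in liver Treg, Acvrl1 was at 1.97, 3.31, 1.34, 5.15 and 1.90 CPM, against 7.21, 7.596 and 5.96 CPM in controls. All CCl4 libraries lay below all controls. The fall was 2.51-fold (log2 fold change -1.33, SE 0.29, edgeR adjusted p = 0.00146) and was called in all 8 fits that left out 1 library, between -1.70 and -1.16, but not on the longest protein-coding transcript alone (-1.64, adjusted p = 0.469). In spleen Treg the CCl4 libraries had 7.52 to 15.4 CPM and the controls 6.41 to 11.1 CPM (log2 0.20, SE 0.27). The CCl4 effect in liver Treg was below that in spleen Treg by 1.53 (SE 0.40, edgeR adjusted p = 0.02), which was not called without liver Treg control 2 (adjusted p = 0.0549), without spleen Treg control 3 (0.0795) or without spleen controls 2 and 3 (0.19). In liver Tconv the CCl4 libraries had 10.99 to 19.7 CPM and the controls 16.1 to 22.3 CPM (log2 -0.32, SE 0.26).

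Some endothelial markers were lower along with Acvrl1 in liver Treg. The 10 markers summed to 106 to 124 CPM with CCl4 and to 203 to 221 CPM in controls, and 3 of 9 tested fell, Pecam1 (CD31), Stab2 and Clec4g. Most of the sum was Pecam1, which T cells express as well, at 95.2 to 122 CPM with CCl4 and 189.6 to 209.98 CPM in controls. Stab2, a marker of liver sinusoidal endothelium, was at 0 to 0.148 CPM with CCl4 and 0.471 to 5.69 CPM in controls, while Lyve1 and Emcn were under 1 CPM in every liver Treg library. Others were not lower, with means of 2.32 CPM with CCl4 and 1.58 CPM in controls for Vwf, 1.67 and 1.61 CPM for Kdr, and 1.17 and 1.11 CPM for Tek. The part of endothelial RNA in the fall of Acvrl1 was not tested. Gm16031, annotated as antisense to Acvrl1, overlaps its exons, and without strand its reads cannot be told apart from those of Acvrl1.

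Smad3 (chromosome 9, 63646767 to 63757994, minus strand) encodes the transcription factor that carries the receptor signal to the nucleus. It varied little: group means ran between 110.03 ± 10.9 CPM in CCl4 spleen Treg (SD, n = 5) and 60.3 ± 8.50 CPM in control spleen Tconv (SD, n = 3), and each group overlapped its neighbours in that order. In spleen Treg it was at 102, 109, 115, 125 and 97.5 CPM with CCl4 and at 75.3, 91.5 and 82.6 CPM in controls. The groups did not overlap, and the log2 fold change of 0.40 (SE 0.14) was not called (edgeR adjusted p = 0.178). In liver Treg it was at 90.2 to 121 CPM with CCl4 and 70.4 to 102 CPM in controls.

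Smad3 was higher in Treg than in Tconv in spleen (log2 fold change 0.61, SE 0.10, edgeR adjusted p = 1.01e-05), at 75.3 to 125 CPM in Treg and 52.8 to 83.2 CPM in Tconv. In liver the value was 0.17 (SE 0.10) and was not called (adjusted p = 0.145). It was higher in liver than in spleen Tconv by 0.45 (SE 0.10, adjusted p = 0.00036), with 0.01 (SE 0.10) in Treg. The difference between these tissue effects was -0.44 (SE 0.14, adjusted p = 0.0268), called in 7 of 11 alternatives and not without spleen controls 2 and 3 (adjusted p = 0.219).

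Smad7, on chromosome 18, encodes the inhibitory Smad that blocks and removes the activated type I receptor. It rose with CCl4 in liver Treg, where it was at 119, 126, 123, 105 and 128 CPM with CCl4 and at 58.0, 86.8 and 75.1 CPM in controls. All CCl4 libraries lay above all controls. The rise was 1.64-fold (log2 fold change 0.71, SE 0.16, edgeR adjusted p = 0.00183) and was called in all 8 fits that left out 1 library, between 0.57 and 0.85. In liver Tconv it was at 164 to 215 CPM with CCl4 and 147 to 170.4 CPM in controls (log2 0.27, SE 0.15). The CCl4 effects did not differ past the test between liver Treg and spleen Treg (0.25, SE 0.22, adjusted p = 0.583) or liver Tconv (0.45, SE 0.22, adjusted p = 0.317).

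In spleen the values of Smad7 moved with the libraries that stood apart. In spleen Treg it was at 71.5, 68.3, 78.9, 74.3 and 64.5 CPM with CCl4 and at 63.5, 47.8 and 45.1 CPM in controls, and in spleen Tconv at 146, 177, 168, 205 and 149.7 CPM with CCl4 and at 172, 91.6 and 108 CPM in controls. In both cell types the higher control was library 1 and the lower ones were libraries 2 and 3, which also had low Fos. The log2 fold change was 0.46 (SE 0.16, edgeR adjusted p = 0.165) in Treg and 0.45 (SE 0.15, adjusted p = 0.143) in Tconv with all libraries, and 0.17 in Treg and -0.022 in Tconv without controls 2 and 3. Leaving out spleen Tconv control 1 instead gave 0.76 (adjusted p = 0.00252).

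Treg had less Smad7 than Tconv, by 0.90 in liver (SE 0.11, edgeR adjusted p = 4.23e-08) and by 1.25 in spleen (SE 0.11, adjusted p = 1.35e-10), both as log2 fold changes and both without overlap of libraries. It was higher in liver than in spleen Treg by 0.62 (SE 0.11, adjusted p = 1.61e-05), and by 0.48 without spleen controls 2 and 3 (adjusted p = 0.00104). In Tconv the tissue effect of 0.28 (SE 0.11, adjusted p = 0.0311) came to 0.03 without them (adjusted p = 0.841).

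The other Smads and regulators moved in both directions in liver Treg. Of 25 tested Smads and regulators 4 rose and 4 fell with CCl4, with a median log2 fold change of -0.07, beside the 7.55% and 7.34% of all genes. Skil, which encodes the Smad corepressor SnoN, rose to a mean of 405 CPM with CCl4, against 199.5 CPM in controls (log2 fold change 1.02, SE 0.13, edgeR adjusted p = 1.93e-06). Pmepa1, a membrane protein that keeps Smad3 from the receptor, rose by 0.71 (SE 0.17, adjusted p = 0.00363), and Tgif2, a corepressor, rose by 0.57 (SE 0.09, adjusted p = 6.05e-05). Nedd4l, a ubiquitin ligase that targets activated Smads, fell by 0.87 (SE 0.17, adjusted p = 0.00046). The 3 others that fell were Smad4, Smurf1 and Wwp1, and the other that rose was Rnf111, all named after their values were seen. On its longest protein-coding transcript alone the log2 fold change of Skil was -0.082 (edgeR adjusted p = 0.994). Of the 9 alternative fits, 8 called Skil, 8 called Nedd4l, 7 called Tgif2 and 9 called Pmepa1. In spleen 1 gene of this list was called in each cell type, Tgif1, with 0.68 in Treg and 0.67 in Tconv, and neither was called without spleen controls 2 and 3 (0.23 in both).

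Of the 9 tested genes known to be raised by TGF-beta, 2 rose with CCl4 in liver Treg and 0 fell, with a median log2 fold change of -0.06, beside the same 7.55% and 7.34%. These were Skil and Pmepa1, which the list of regulators also holds. Itgae, which encodes the CD103 integrin chain that TGF-beta is known to raise on T cells, was at a mean of 221 CPM with CCl4 and 336 CPM in controls in liver Treg (log2 fold change -0.60, SE 0.26, edgeR adjusted p = 0.123). None of the list was called with CCl4 in the other 3 populations. Between tissues 6 were higher and 1 lower in liver than in spleen Treg, beside 30.1% and 30.5% of all genes. In Tconv 7 were higher and 0 lower in liver, beside 27.2% and 27.7% of all genes. Of 11 other receptors and coreceptors of the superfamily, 1 rose with CCl4 in liver Treg and 0 fell, beside 7.55% and 7.34% of all genes. It was Bmpr2, a type II receptor for bone morphogenetic proteins, at 11.5 CPM with CCl4 and 6.21 CPM in controls (log2 fold change 0.89, SE 0.30, edgeR adjusted p = 0.0441). Of the same 11 genes 5 were higher in liver than in spleen Treg and 6 in liver than in spleen Tconv, with 0 lower in either, beside the same shares of all genes. The 25 Smads and regulators went both ways, with 10 higher and 8 lower in liver than in spleen Treg. In Tconv 11 of them were higher and 6 lower in liver.

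The genes whose levels were most like each of the 10 were sought over the 32 libraries. Pearson correlations of log2 CPM are given as a description, since the points share tissue, cell type and treatment. The nearest genes to Lrrc32 were Il2ra (r = 0.98) and Ikzf2 (r = 0.98), which encode the interleukin 2 receptor alpha chain and the transcription factor Helios. Tgfbr1 was nearest to Phtf2 (r = 0.96) and Foxp3 (r = 0.94), and Itgav to Rab11fip1 and Raph1 (r = 0.97 for both). Itgb8 was nearest to Lclat1 and Camk2d (r = 0.97 for both), Tgfbr2 to Stt3b (r = 0.98) and Znrf1 (r = 0.97), and Tgfbr3 to Dph5 and Mboat1 (r = 0.98 for both). Acvrl1 was nearest to Gucd1 (r = 0.97) and Dgka (r = 0.96), and Smad7 to St6galnac2 (r = 0.93) and Ranbp9 (r = 0.90). The flatter genes had looser neighbours: Smad3 was nearest to Il12rb1 and Il2rb (r = 0.86 for both), receptor chains for interleukin 12 and interleukin 2, and Tgfb1 to Slc12a2 and Icosl (r = 0.75 for both).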

How the data were processed

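RNA of 32 libraries was measured with the Clontech Ultra Low v4 kit and NexteraXT, per the labels. Per the submitters' processing notes, bcl2fastq 2.19, kallisto 0.44.0, GRCm38.p6 and DESeq2 were used. The sources used here name no annotation release or strand setting. Each deposited file holds, per the file headers, kallisto's estimated counts and TPM per transcript. Here 98.5% of 118489 transcripts matched GENCODE M21 by name and were summed to 35968 genes; the 1761 unmatched held 0.684 to 0.823% of counts and stayed out. Rounded gene sums were tested with edgeR 4.0.16 (R 4.3.3, filterByExpr, TMM) in 1 quasi-likelihood fit of 8 groups with 24 residual degrees of freedom. SE are the log2 fold change over the root of F. Adjusted p are Benjamini-Hochberg values over 17159 genes. Tissue and cell type contrasts average both treatments. CPM are TMM-normalized; the authors' TPM were summed and not rescaled, and log2(TPM + 0.5) entered an alternative in limma 3.58.1; DESeq2 1.42.0 was another. Named pathway genes were at most 4 called genes per list and comparison with a mean of at least 5 CPM, by smallest adjusted p; likeness names the 2 genes of highest r. The members and lists were chosen with earlier results of these data known. Code was tested on simulated counts.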

Additional observations from a re-analysis of the deposited data

Results flagged for a closer look

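In 2 of the 40 groups of 5 CCl4 libraries, a single library lay far from the other 4, where chance alone gives about 1 in 20 groups. Tgfb1 was at 122.5 CPM in spleen Tconv CCl4 library 4, with the others at 81.2 to 93.1 CPM. Lrrc32 was at 959.7 CPM in liver Treg CCl4 library 5, with the others at 774 to 813 CPM.

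For 2 genes the CCl4 effect differed between liver Treg and spleen Treg in the test of the difference itself: Itgav by 0.78 and Acvrl1 by -1.53 on the log2 scale. Both depended on single control libraries, as given above.

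For 7 of the 10 genes the difference between liver and spleen differed between Treg and Tconv past the test, as it did for 19.4% of all genes. The difference of the log2 fold changes, Treg minus Tconv, was -0.50 for Tgfb1, -1.46 for Lrrc32, 1.71 for Itgav and -0.63 for Tgfbr2. It was -1.42 for Tgfbr3, 0.94 for Acvrl1 and -0.44 for Smad3. Without spleen controls 2 and 3 the test called 5 of these 7, and Acvrl1 (0.79) and Smad3 (-0.38) were not called.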

How the results depend on the processing

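The rise of Itgav and of Smad7 in liver Treg was called under all 9 alternatives and in all 8 fits that left out 1 library, and the fall of Acvrl1 under 8 of 9, the longest protein-coding transcript alone being the exception. The fall of Tgfbr3 was called under 5 of 9 alternatives and in 3 of 8 fits that left out 1 library. The number of the 10 genes called with CCl4 in liver Treg was 4, and 2 on the longest protein-coding transcript (an alternative chosen after seeing the data), with 3 to 4 when 1 library was left out. In spleen Tconv it was 0, and 2 with DESeq2, with 0 to 1 when 1 library was left out. For liver against spleen in Tconv it was 8, with 5 in control libraries alone, 5 in CCl4 libraries alone, 4 without spleen controls 2 and 3, and 5 to 8 when 1 library was left out. For the CCl4 effect in liver Treg minus spleen Treg it was 2, with 1 under length offsets, 1 on the deposited TPM, 0 without spleen controls 2 and 3, 0 on the longest transcript and 0 to 2 when 1 library was left out. For that in liver Treg minus liver Tconv it was 0, with 1 under the replicate block (Tgfbr1) and 0 to 1 when 1 library was left out. For the liver to spleen difference of Treg minus Tconv it was 7, with 4 in control libraries alone and 6 to 8 when 1 library was left out. Causes were not tested, other than that control or CCl4 libraries alone are fewer samples.

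Signs turned in 4 results of single genes, of which 1 was called under the alternative. These were Smad7 with CCl4 in spleen Tconv (-0.022 without spleen controls 2 and 3), Itgb1 in liver against spleen Treg (-0.047 in CCl4 libraries alone), and, on the longest transcript, Nrros in Treg against Tconv in liver (-2.63, called) and Skil with CCl4 in liver Treg (-0.082).

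Same-numbered libraries deviated together in some pairs of groups and not in others: of 12 pairs of groups with the same treatment, 2 had every correlation over 0.1, spleen Treg and spleen Tconv controls (0.480, 0.264 and 0.207) and liver and spleen Treg controls (0.140, 0.130 and 0.105), and of 4 CCl4 and control pairs none did. The median correlation was 0.115 over the pairs with the same treatment and -0.043 over the CCl4 and control pairs. The numbers were taken as names only, since no comparison met that mark of 0.1 in all its libraries. Whether same-numbered libraries share an animal is not given, and the fit reported treats them as independent. With the replicate block 5 of the 10 genes were called with CCl4 in liver Treg, Tgfbr1 in addition, and 8 in Treg against Tconv in liver, without Tgfb1.

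Counts of all genes called moved by over 1.5 times in the CCl4 comparisons: 1517 to 3035 in liver Treg (2555 in the fit reported), 3 to 275 in liver Tconv (56), 0 to 506 in spleen Treg (202) and 0 to 657 in spleen Tconv (183). The same held for the differences of CCl4 effects, 330 to 1445 for liver Treg minus spleen Treg (940), 347 to 952 for liver Treg minus liver Tconv (626) and 0 to 15 for spleen Treg minus spleen Tconv (0). For tissue and cell type the counts were 6234 to 9408 in Tconv between tissues (9434), 5916 to 9467 between cell types in liver (8895), 3799 to 7002 in spleen (6805) and 1122 to 3957 for the difference of tissue effects (3324). Lrrc32 and Itgb8 in Tconv and Tgfbr3 and Acvrl1 in liver Treg were all at a few CPM or less, and the part of depth in their results was not tested.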
